A study of Mus musculus with 2 samples.

Results

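The expression of 42 cell cycle genes was described in single cells of the mouse hindlimb at embryonic day E11.5. The genes were taken by name as 19 genes of DNA replication in S phase and 23 genes of G2 and mitosis (G2/M), out of 56982 features in each deposited matrix. All 42 had UMIs (unique molecular identifiers, each counting 1 captured transcript) in both libraries and held 0.682% of the UMIs of the dual-enSERT-1 library and 0.633% of those of the dual-enSERT-2 library. Each library came from the dissected hindlimbs of 1 transgenic embryo of the FVB strain, dissociated with collagenase II and run on the 10x Genomics 3' chemistry. In both embryos the H11 locus held reporters in which the ZRS, the limb enhancer of Shh, drives mCherry and its ZRS404G>A allele drives eGFP. The dual-enSERT-1 label gives H11 ZRS-mCherry/ZRS404G>A-eGFP and that of dual-enSERT-2 places B-ZRS-mCherry, SI and ZRS404G>A-eGFP-B there in that order, with B and SI not spelled out. Neither embryo lacked the reporters, and construct, embryo and preparation cannot be told apart between the libraries.

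Cells copy their DNA in S phase and part it in mitosis, and the genes for these steps are transcribed in waves. The S wave is driven by E2F factors at the passage from G1. The G2/M wave is held down by the DREAM complex in resting cells and raised later by MYBL2 and FOXM1 with NFY. The limb bud grows by the division of its mesenchyme under signals of the ectodermal ridge and of Shh, while the primitive erythroid cells in its vessels divide and mature in the blood stream.

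After filtering, 15985 cells of the dual-enSERT-1 library and 6452 of that of dual-enSERT-2 remained, with a median of 13980 and 25809.5 UMIs per cell, and 49 cell barcodes occurred in both libraries. Cells were clustered without the members, other cell cycle genes, the reporters and Shh, and clusters were named from fixed marker genes. Mesenchyme-like cells numbered 13046 and 3778, and all 10 of their markers were above 10 UMIs per 1000000 UMIs (CPM) in both libraries. Erythroid-like cells made up 1.52% of cells in the dual-enSERT-1 library and 25.3% in that of dual-enSERT-2. Summed erythroid markers, which mesenchyme should lack, were at 304 CPM in mesenchyme-like cells of dual-enSERT-1 and at 3285 CPM in those of dual-enSERT-2, and their part in the values below was not tested. Clusters of very shallow cells, 9.08% and 9.83% of cells, stayed unnamed.

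Mesenchyme-like cells carried 27.0 S UMIs per 10000 UMIs in the dual-enSERT-1 library and 30.5 in that of dual-enSERT-2. Their G2/M sums were 43.6 and 46.0 per 10000. Muscle-like cells had nearly the S sum of mesenchyme, 26.7 and 28.0, and a lower G2/M sum, 35.1 and 41.1. Macrophage-like cells, 62 and 55 in number, had S sums of 23.9 and 27.7 and G2/M sums of 42.0 and 36.4. Megakaryocyte markers summed to 337 CPM in these cells of dual-enSERT-1 and to 1550 CPM in those of dual-enSERT-2. Macrophage markers summed to 6071 and 3418 CPM there. The part of megakaryocytes in these sums was not tested. Endothelial- and ectoderm-like cells lay below mesenchyme in both sums and both libraries. Endothelial-like cells had S sums of 17.2 and 19.98 and G2/M sums of 31.7 and 38.0, and ectoderm-like cells had S sums of 18.3 and 23.5 and G2/M sums of 29.9 and 33.7. Among these 5 classes the endothelial-like class was lowest in S and the ectoderm-like class lowest in G2/M in both libraries. Muscle- and macrophage-like cells changed places in the G2/M sum between the libraries, so that their order was not settled.

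**Figure D1:**
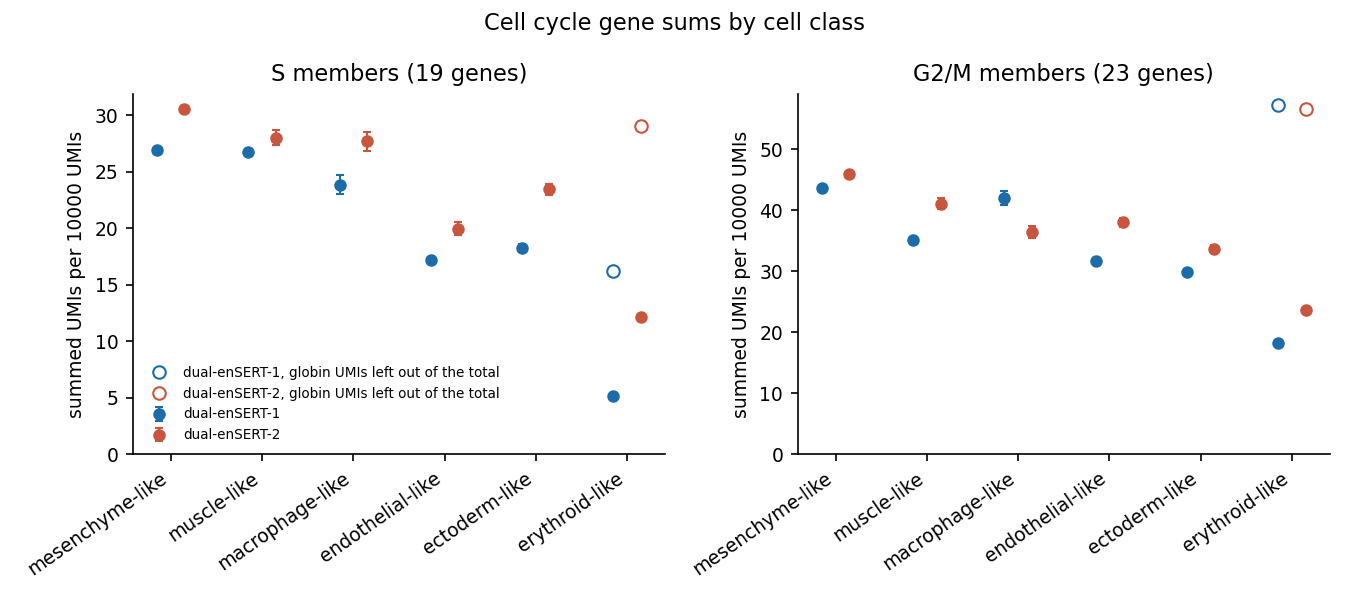
Summed UMIs of the 19 S and 23 G2/M members per 10000 UMIs of the pooled cells of each class (y axis), by class (x axis) and library (colour). Filled points use all UMIs with 95% Poisson intervals, and open points leave globin UMIs out of the erythroid total. Mesenchyme-like cells sit at 27.0 and 30.5 for S, and endothelial- and ectoderm-like cells lie below them in both panels.

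Each class was tested against mesenchyme-like cells with edgeR on UMIs summed per library and class, with the library as a block. With 2 libraries this leaves 1 residual degree of freedom per gene. The estimate of spread is shared across genes by edgeR, so a small p-value does not rest on the spread of its own gene alone. That spread is the one between these libraries, which differ in construct. In endothelial-like cells 13 of the 19 S members fell and none rose, beside 24% of all 20237 genes tested called lower and 18.7% called higher. Of the 23 G2/M members 9 fell and 3 rose. The median log2 fold change was -0.47 over the S members and -0.21 over the G2/M members, beside -0.21 over all genes. The TMM scaling of edgeR adds 0.12 to log2 values in this contrast compared with total UMIs. With doublets kept in the sums 8 S members were called lower, and 5 G2/M members lower and 2 higher. Of 20716 genes tested in that setting 18.1% were called lower and 18.7% higher. Of 9 immediate early and heat shock genes that respond to dissociation, 6 rose in this class and 0 fell, with a median log2 fold change of 1.39, and their part in the result was not tested.

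Among the S members Ccne1, cyclin E of the G1/S switch, stood at 61.8 CPM in mesenchyme-like and 19.3 CPM in endothelial-like cells of dual-enSERT-1, and at 90.7 and 18.6 CPM in dual-enSERT-2. It fell by 1.82 on the log2 scale (SE 0.15, adjusted p = 8.7e-31). Cdca7, a recruiter of the chromatin remodeller Hells, was at 157 against 56.2 CPM and at 142 against 53.6 CPM, and fell by 1.33 (SE 0.14, adjusted p = 1.4e-20). Hells itself, which opens chromatin for DNA methylation, fell by 0.83 on the log2 scale. Mcm7, a subunit of the replicative helicase, was at 250 against 109 CPM and at 294 against 127 CPM, and fell by 1.08 (SE 0.13, adjusted p = 1.4e-15). In each of these genes the endothelial-like value lay below the mesenchyme-like value of either library. Rrm2, the regulated subunit of ribonucleotide reductase, Mcm5, another helicase subunit, and Pcna, the sliding clamp, fell by less, with log2 fold changes of -0.85, -0.52 and -0.32.

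The G2/M members split in endothelial-like cells. Ect2, which sets the cleavage furrow, fell by 1.24 on the log2 scale (SE 0.14, adjusted p = 3.5e-17), from 88.7 to 30.8 CPM in dual-enSERT-1 and from 109 to 48.4 CPM in dual-enSERT-2. The kinetochore gene Cenpf and the checkpoint kinase Bub1 fell by 0.83 and 0.87. Ccnb1, cyclin B, and Top2a, which untangles sister DNA, fell by 0.48 and 0.64. Cdk1, the partner kinase of cyclin B, rose, from 203 to 284 CPM in dual-enSERT-1 and from 234 to 292 CPM in dual-enSERT-2, with a log2 fold change of 0.52 (SE 0.13, adjusted p = 1.6e-04). Birc5, of the chromosomal passenger complex, and Anln, a scaffold of the contractile ring, rose by 0.30 and 0.35. Mki67, which coats mitotic chromosomes, had a log2 fold change of 0.048 (adjusted p = 0.80).

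In ectoderm-like cells 10 of 19 S members and 14 of 23 G2/M members fell and none of either list rose, beside 11.1% of 20717 genes called lower and 13.3% called higher. At an unadjusted p under 0.05, edgeR counted 15 S and 17 G2/M members lower and 0 higher, beside 16.9% of all genes lower. At an adjusted p under 0.05, DESeq2 called 15 and 20 lower and 0 higher, beside 14.8% of its 19512 genes lower. The medians were -0.43 for S and -0.48 for G2/M members, beside -0.041 over all genes. All 23 G2/M members lay below mesenchyme in both libraries on the scale of total UMIs. Rrm2 was at 245 against 111 CPM in dual-enSERT-1 and at 330 against 166 CPM in dual-enSERT-2, and fell by 1.02 on the log2 scale (SE 0.13, adjusted p = 1.3e-04). Its partner subunit Rrm1 fell by 0.68, Cdc45, a part of the active helicase, by 0.85 and Ccne1 by 0.77. Of the mitotic genes Bub1 fell by 0.73, the spindle genes Hmmr and Tpx2 by 0.68 and 0.62, and Birc5 by 0.53. Mki67, Top2a and Ccnb1 fell by 0.43, 0.54 and 0.50, and Pcna and Mcm5 by 0.42 and 0.58. Ectoderm-like cells were also the shallowest named class in dual-enSERT-1, with a median of 9608.5 UMIs against 14560 in mesenchyme. In cells of at least 5000 UMIs thinned to that number, 319 of 430 and 149 of 179 ectoderm-like cells, the mean log2 ratio to mesenchyme was -0.40 for the S sum and -0.43 for the G2/M sum, beside -0.47 and -0.50 with all UMIs, and 15 members were called in place of 24. Of 15492 genes tested in the thinned cells 10.2% were called lower and 10.9% higher.

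Macrophage-like cells differed from mesenchyme in few members by edgeR. Ccne1 and Rrm2 fell by 1.21 and 0.86 on the log2 scale, Cenpf fell by 0.62 and Mki67 rose by 0.70, out of 42 members, beside 16.1% of 20140 genes called lower and 14.3% called higher. Mki67 stood at 184 CPM in mesenchyme-like and 323 CPM in macrophage-like cells of dual-enSERT-1, and at 209 and 300 CPM in dual-enSERT-2. Top2a, Ccnb1, Pcna and Mcm5 had log2 fold changes of -0.42, -0.22, 0.011 and 0.14, with adjusted p of 0.14, 0.47, 0.98 and 0.66. More members were called by DESeq2, 3 S members higher and 4 lower, and 2 G2/M members higher and 4 lower. Beside these, 18.6% of its 17406 genes were called higher and 16.8% lower. Of the 9 dissociation genes 8 rose in this class, and their part in the result was not tested.

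Muscle-like cells differed in 1 S and 1 G2/M member, beside 5.38% of 20462 genes called higher and 6.68% called lower. Ccne1 was at 61.8 CPM in mesenchyme-like and 162 CPM in muscle-like cells of dual-enSERT-1 and at 90.7 and 135 CPM in dual-enSERT-2, and rose by a log2 fold change of 1.05 (SE 0.16, adjusted p = 4.2e-10). It was called lower in the endothelial-, ectoderm- and macrophage-like classes. Ccnb2, the second cyclin B, fell by 0.57 (adjusted p = 0.0035), from 117 to 69.4 CPM and from 110 to 78.8 CPM. The log2 fold changes of Mki67, Top2a, Ccnb1, Mcm5, Pcna and Rrm2 lay between -0.36 and -0.081, and none passed the test. DESeq2 called 0 S members and 3 G2/M members, all lower, so that Ccne1 did not pass there. Of its 17288 genes 6.33% were called higher and 6.19% lower.

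**Figure D2:**
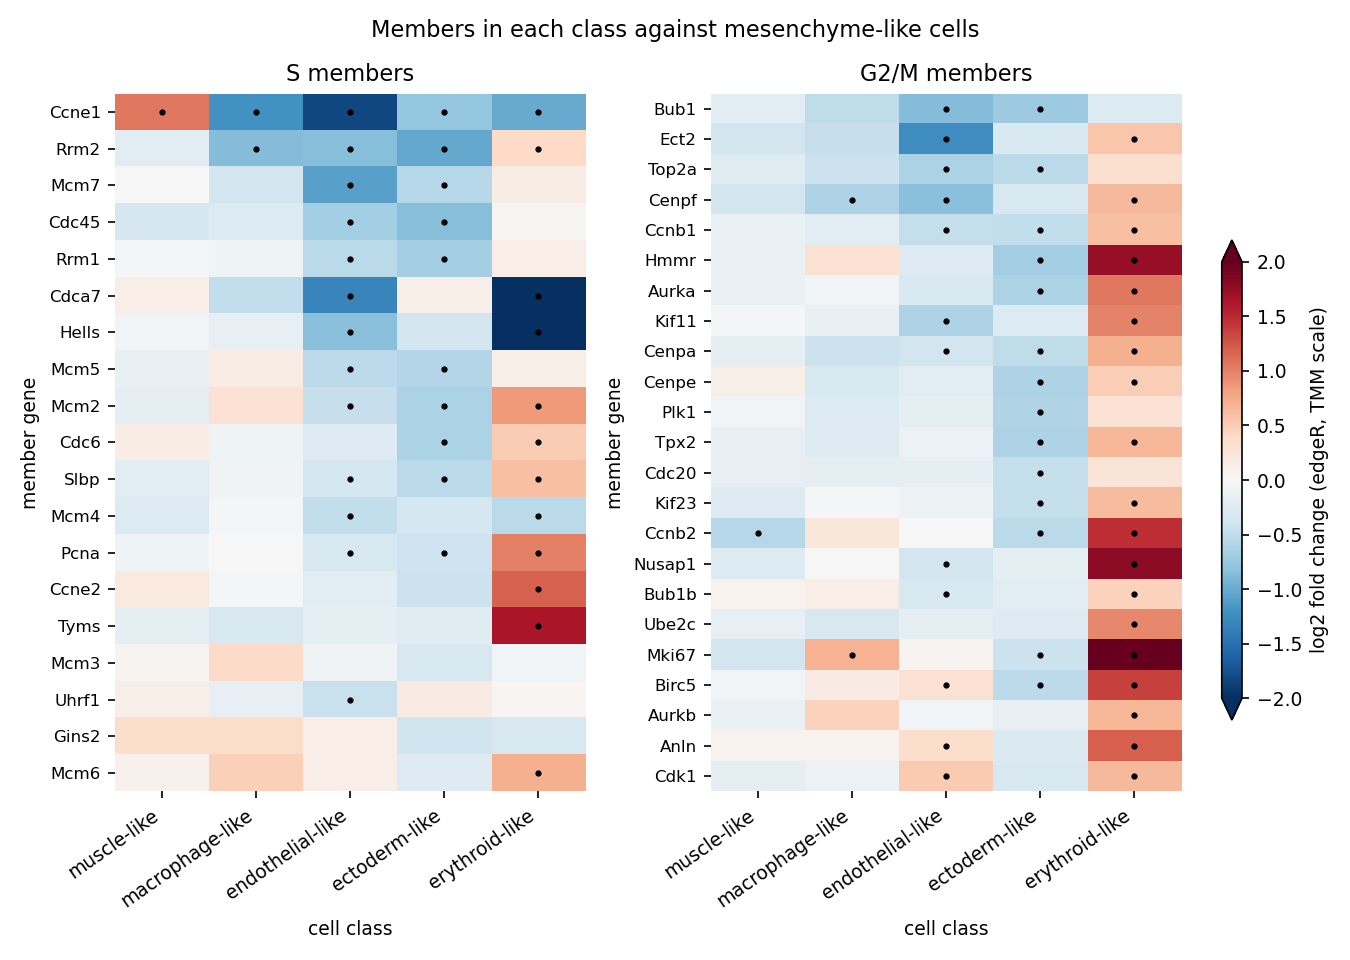
Colour shows the edgeR log2 fold change of each member (y axis) in each class (x axis) against mesenchyme-like cells after TMM scaling, for 19 S members (left) and 23 G2/M members (right); dots mark adjusted p under 0.05 and colours end at 2 in either direction. Ccne1 is red in the muscle-like column and blue in the others. In the erythroid-like column 19 of 23 G2/M members are called higher and 0 lower. On the scale of total UMIs, which is not drawn, 22 of the 23 lay below mesenchyme in both libraries.

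In erythroid-like cells the direction depended on the scale. Globin transcripts took 68.1% of their UMIs in the dual-enSERT-1 library and 58.1% in that of dual-enSERT-2. Per 10000 of all UMIs the S sum was 5.18 and 12.2, and the G2/M sum 18.2 and 23.7, the lowest of the named classes. With globin UMIs left out of the total, a choice made after the data were seen, the G2/M sum was 57.2 and 56.5, which is 1.31 times (95% interval 1.28 to 1.34) and 1.22 times (1.22 to 1.23) the mesenchyme value, and the S sum was 16.2 and 29.0, which is 0.602 times (0.578 to 0.626) and 0.947 times (0.938 to 0.955) that value. The TMM scaling of edgeR adds 2.17 to log2 values here compared with total UMIs, and DESeq2 size factors add 2.10. Mesenchyme markers summed to 6.26% of their mesenchyme level in dual-enSERT-1 and to 3.20% in dual-enSERT-2 per UMI outside the globins.

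On the TMM scale 19 of 23 G2/M members rose and none fell in erythroid-like cells, and 8 of 19 S members rose and 4 fell, beside 22.1% of 20527 genes called higher and 29.4% called lower; on total UMIs 22 G2/M and all 19 S members lay below mesenchyme in both libraries. With doublets kept in the sums 1 member was called, beside 2.29% of 21160 genes called higher and 0 called lower. Of the 9 dissociation genes 5 rose and 2 fell on the TMM scale, and their part was not tested. Mki67 was higher on both scales, at 332 against 184 CPM in dual-enSERT-1 and at 505 against 209 CPM in dual-enSERT-2, with an edgeR log2 fold change of 3.23 (SE 0.19, adjusted p = 2.0e-64). Hells and Cdca7 were lower on both scales. Hells was at 8.46 against 225 CPM and at 14.0 against 220 CPM, with a log2 fold change of -2.14 (SE 0.20), and Cdca7 at 5.77 against 157 CPM and at 9.37 against 142 CPM, with -2.11 (SE 0.21). Ccne1 and Mcm4 were lower on both scales as well, with edgeR values of -1.004 and -0.53. Pcna, Rrm2 and Ccnb1 were called higher by edgeR, with 1.003, 0.40 and 0.60, but lay at 67.2 against 216, 59.6 against 245 and 39.2 against 124 CPM in dual-enSERT-1. Top2a and Mcm5 had log2 fold changes of 0.32 (adjusted p = 0.10) and 0.12 (adjusted p = 0.62).

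Other cell cycle genes, from lists of the known machinery, were read beside the members. Over all genes, 24% of 20237 were called lower and 18.7% higher in endothelial-like cells. In ectoderm-like cells 11.1% of 20717 genes were called lower and 13.3% higher. Of 24 other replication genes 17 fell and 0 rose in endothelial-like cells and 5 fell and 0 rose in ectoderm-like cells, with Clspn, a replication checkpoint adaptor, down by 1.02 and 0.87 on the log2 scale. Of 37 other mitosis genes 20 fell in endothelial-like and 19 in ectoderm-like cells and 0 rose in either, among them Pbk (-0.75) and Cdca2 (-0.70) in the former and Ccna2, cyclin A (-0.75), and Kif22 (-0.72) in the latter. In erythroid-like cells 24 of the 37 mitosis genes rose and 1 fell on the TMM scale, beside 22.1% of 20527 genes called higher and 29.4% called lower. On total UMIs 36 of the 37 lay below mesenchyme in both libraries and 1 above it in both, so their direction depended on the scale. Cdc25b, a phosphatase that activates Cdk1, was higher on both scales with a log2 fold change of 3.46, while Cep55, of the abscission machinery, was lower on both with -3.88.

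The regulators of G1 differed between the classes as well. Ccnd1 and Ccnd2, cyclins D that link growth signals to the cycle, were low in erythroid-like cells, at 5.57 and 4.32 CPM for Ccnd1 and 10.7 and 9.59 CPM for Ccnd2, where Ccnd3 stood at 235 and 309 CPM. In endothelial-like cells Ccnd1 rose by a log2 fold change of 0.85 (264 to 449 CPM and 270 to 438 CPM) and Ccnd2 fell by 2.23 (454 to 87.9 CPM and 394 to 78.2 CPM). Cdkn1a, an inhibitor of Cdk2 induced by p53 and by differentiation, was at 1.85 and 1.06 CPM in mesenchyme-like cells. It rose in all 5 other classes, to 282 and 42.5 CPM in muscle-like and 121 and 107 CPM in ectoderm-like cells, with log2 fold changes of 6.52 (SE 0.20) and 6.37 (SE 0.18). Cdkn1c, an imprinted inhibitor of G1 kinases, fell in erythroid- and macrophage-like cells by 2.88 and 2.71 and rose in endothelial-like cells by 0.88. In muscle-like cells it was at 2669 CPM in dual-enSERT-1 and 324 CPM in dual-enSERT-2, above mesenchyme in the first library and below it in the second. Mycn, a growth regulator of limb mesenchyme, fell in endothelial-, macrophage- and erythroid-like cells by 0.59, 1.88 and 3.54, whereas Myc rose there by 2.29, 3.12 and 3.89.

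Within the mesenchyme, cells were divided by position markers, each read as 1 or more UMIs after thinning the cell to 5000 UMIs. Shh marks the posterior organizer, Hoxa13 and Hoxd13 the distal autopod, Meis1 and Meis2 the proximal limb, Pax9, Alx1 and Alx4 the anterior margin, and Sox9 the cartilage condensations. Shh was seen in 2.18% and 2.78% of thinned cells, Hoxa13 or Hoxd13 in 32.3% and 14.6%, Meis in 28.2% and 40.7%, Pax9/Alx in 6.04% and 6.47%, and Sox9 in 46.6% and 26.0%. The groups overlap, since 79.4% of Shh cells in the dual-enSERT-1 library and 48.1% in that of dual-enSERT-2 also had Hoxa13 or Hoxd13, and 4.26% and 14.4% had Meis. Sox9 was also seen in 50.9% and 34.4% of Meis cells and in 49.9% and 19.4% of Pax9/Alx cells. Of Sox9 cells 30.8% and 53.8% had Meis, so the Meis and Sox9 contrasts share many cells. In thinned erythroid-like cells, which should lack these genes, 0 of 243 cells had Shh in dual-enSERT-1, which allows a share of up to 1.23%, and 0.184% of 1629 cells had it in dual-enSERT-2. Their shares were 2.47% and 0.614% for Hoxa13 or Hoxd13, 1.23% and 1.17% for Meis, 0.412% and 0.184% for Pax9/Alx, and 2.06% and 0.552% for Sox9, at medians of 19376 and 27362 UMIs before thinning, against 14607 and 27426 in mesenchyme. The mesenchyme shares lay above these erythroid-like shares for every marker. For Meis they lay below those of muscle-like cells, at 30.3% and 48.5%, and of ectoderm-like cells, at 84.6% and 85.2%. Sox9 was seen in 7.84% and 11.4% of ectoderm-like cells. Globin took most UMIs of the erythroid-like cells, as given above, and the part of free RNA in the groups was not tested.

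All ratios of the sums between positions lay between 0.838 and 1.19. In distal cells the S sum was 30.02 per 10000 UMIs against 25.2 in other mesenchyme of dual-enSERT-1, a ratio of 1.19 (95% interval 1.185 to 1.197), and 31.7 against 30.3 in dual-enSERT-2, a ratio of 1.04 (1.03 to 1.05). The G2/M sum was 46.8 against 41.7 in dual-enSERT-1, a ratio of 1.12, and 44.0 against 46.4 in dual-enSERT-2, a ratio of 0.948. The S sum was thus higher in distal cells of both libraries and the G2/M sum went in opposite directions. Cells with Meis showed the reverse for S, with 23.7 against 28.1 (0.843) and 30.4 against 30.7 (0.991), and G2/M ratios of 0.903 and 0.997. Distal cells were also deeper, with a median of 16665 against 13536 UMIs in dual-enSERT-1 and 28851 against 27244.5 in dual-enSERT-2. In cells thinned to 5000 UMIs the mean log2 S ratio of distal cells was 0.18, beside 0.16 with all UMIs.

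No member passed the edgeR test in distal cells, beside 1.67% of 21556 genes called higher and 3.22% called lower. At an unadjusted p under 0.05, 8 S and 1 G2/M members were higher and 0 lower, beside 7.98% of all genes higher and 10.3% lower. DESeq2 called 4 S members higher, beside 3.91% of its 18630 genes. Pcna was at 254 against 194 CPM in dual-enSERT-1 and at 303 against 282 CPM in dual-enSERT-2, with a log2 fold change of 0.26 (SE 0.09, adjusted p = 0.20). Rrm2 was at 299 against 215 CPM and at 363 against 324 CPM, with 0.33 (SE 0.09, adjusted p = 0.12). Mcm5, Mki67, Top2a and Ccnb1 had log2 fold changes of 0.095, -0.038, -0.034 and 0.14. Cdk6, a G1 kinase, rose by 0.70 (adjusted p = 0.016) and Cdkn1c fell by 0.57 (adjusted p = 0.014), from 972 to 592 CPM in dual-enSERT-1 and from 403 to 297 CPM in dual-enSERT-2.

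In cells with Meis 1 member passed, beside 2.5% of 20576 genes called higher and 1.73% called lower. Ube2c, the ubiquitin-conjugating enzyme of the anaphase-promoting complex, was at 407 against 483 CPM in dual-enSERT-1 and at 439 against 527 CPM in dual-enSERT-2, and fell by 0.28 on the log2 scale (SE 0.05, adjusted p = 0.047). It did not pass with cells of at least 2000 genes. Rrm2, Pcna and Ccnb1 had log2 fold changes of -0.31, -0.23 and -0.25, and Mcm5, Mki67 and Top2a of -0.10, 0.069 and 0.071, none past the threshold. Cdk6 fell by 0.59 (adjusted p = 0.045). Without the filter on low counts 14 members were called lower, beside 4.18% of 36392 genes, and DESeq2 called 7 lower, beside 5.26% of 17384 genes.

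Cells with Shh had S sums of 29.5 against 26.9 per 10000 in dual-enSERT-1, a ratio of 1.098 (1.08 to 1.12), and of 28.9 against 30.6 in dual-enSERT-2, a ratio of 0.945 (0.926 to 0.965). Their G2/M sums were higher in both, 46.8 against 43.5 and 49.1 against 45.9, with ratios of 1.07 (1.06 to 1.09) and 1.07 (1.05 to 1.09). No member passed the edgeR test, beside 2.83% of 20559 genes called higher and 3.91% called lower. At an unadjusted p under 0.05, 1 S and 3 G2/M members were higher and 2 S members lower, beside 6.10% of all genes higher and 8.16% lower. DESeq2 called 3 G2/M members higher, beside 3.03% of its 15776 genes. The log2 fold changes of Mki67, Top2a, Ccnb1, Mcm5, Pcna and Rrm2 were 0.018, -0.065, 0.20, -0.018, 0.074 and 0.19. Ccnd2 fell by 0.65 (adjusted p = 1.0e-05), from 457 to 311 CPM and from 399 to 237 CPM, and Cdkn1c by 0.62, while Mycn rose by 0.56 and E2f1 by 0.37.

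Within distal cells, those with Shh (224 and 50) were set against those without. Of the 23 G2/M members 2 rose and 0 fell, and 0 of 19 S members passed, beside 2.45% of 14587 genes called higher and 2.21% called lower. At an unadjusted p under 0.05 edgeR counted 0 S members higher and 1 lower, beside 6.16% and 5.74% of all genes. Ube2c was at 541 against 489 CPM in dual-enSERT-1 and at 625 against 479 CPM in dual-enSERT-2, with a log2 fold change of 0.27 (SE 0.07, adjusted p = 0.0018), and Cdc20, an activator of the same complex, at 175 against 152 and 187 against 151 CPM, with 0.27 (SE 0.09, adjusted p = 0.041). These 2 calls were lost with doublets kept, with cells thinned, without the filter on low counts and with other detection rules for Shh. DESeq2 called 1 G2/M member higher and 0 S members, beside 1.14% of its 12890 genes called higher and 0.915% called lower.

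Sox9 cells had a lower S sum in both libraries, 24.3 against 29.0 per 10000 in dual-enSERT-1, a ratio of 0.838 (0.833 to 0.842), and 29.8 against 30.8 in dual-enSERT-2, a ratio of 0.967 (0.960 to 0.975). Their G2/M sum was 43.6 against 43.6 in the first and 49.5 against 44.8 in the second, with ratios of 1.001 and 1.104. No S member was higher in both libraries and 14 of 19 were lower in both. Ccne2, the second cyclin E, passed the test, at 28.0 against 37.9 CPM and at 33.8 against 39.3 CPM, with a fall of 0.38 on the log2 scale (SE 0.09, adjusted p = 0.033), beside 2.81% of 21756 genes called lower and 3.18% called higher. Pcna, Rrm2 and Mcm5 had log2 fold changes of -0.27, -0.34 and -0.17, and Mki67, Top2a and Ccnb1 of 0.11, 0.031 and -0.028. E2f1 and Mybl2, activators of the S and G2/M waves, fell by 0.36 and 0.37, Mycn fell by 0.85 and Cdkn1c rose by 0.54. Cdkn1c stood at 1103 against 624 CPM in dual-enSERT-1 and at 457 against 362 CPM in dual-enSERT-2. Sox9 cells of dual-enSERT-1 were shallower, with a median of 13243 against 15603 UMIs, and at 5000 UMIs per cell the mean log2 S ratio was -0.17, beside -0.15 with all UMIs.

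Outside the distal cells Ccne2 again passed among Sox9 cells, with a fall of 0.34, beside 2.34% of 20750 genes called higher and 2.25% called lower. Within distal cells no member passed between Sox9 cells and others, beside 1.97% of 16641 genes called higher and 1.47% called lower. There edgeR counted 2 S members lower and 0 members higher at an unadjusted p under 0.05, beside 5.08% and 5.04% of all genes. At an adjusted p under 0.05 DESeq2 called 0 members, beside 0.541% of its 14060 genes lower and 0.733% higher. Whether the Sox9 contrast differed between the distal and other cells was not tested.

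Pax9/Alx cells had S ratios of 0.970 and 0.979 to other mesenchyme and G2/M ratios of 1.03 and 1.01. Gins2, of the complex that activates the helicase, was at 61.4 against 69.6 CPM and at 55.4 against 69.4 CPM and fell by 0.26 on the log2 scale (SE 0.06, adjusted p = 0.0084), beside 1.89% of 20224 genes called higher and 2.41% called lower. Outside the distal cells it fell by 0.31 (adjusted p = 0.0011), beside 1.71% of 19691 genes called higher and 2.8% called lower. DESeq2 called 0 members in either contrast. When Pax9, Alx1 or Alx4 UMIs were read without thinning, so that deeper cells are taken more often, 16 G2/M members were called higher and 2 S members lower, beside 2.62% of 20269 genes higher and 2.44% lower. Cdk6 and Ccnd1 fell in Pax9/Alx cells by 0.68 and 0.37.

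**Figure D3:**
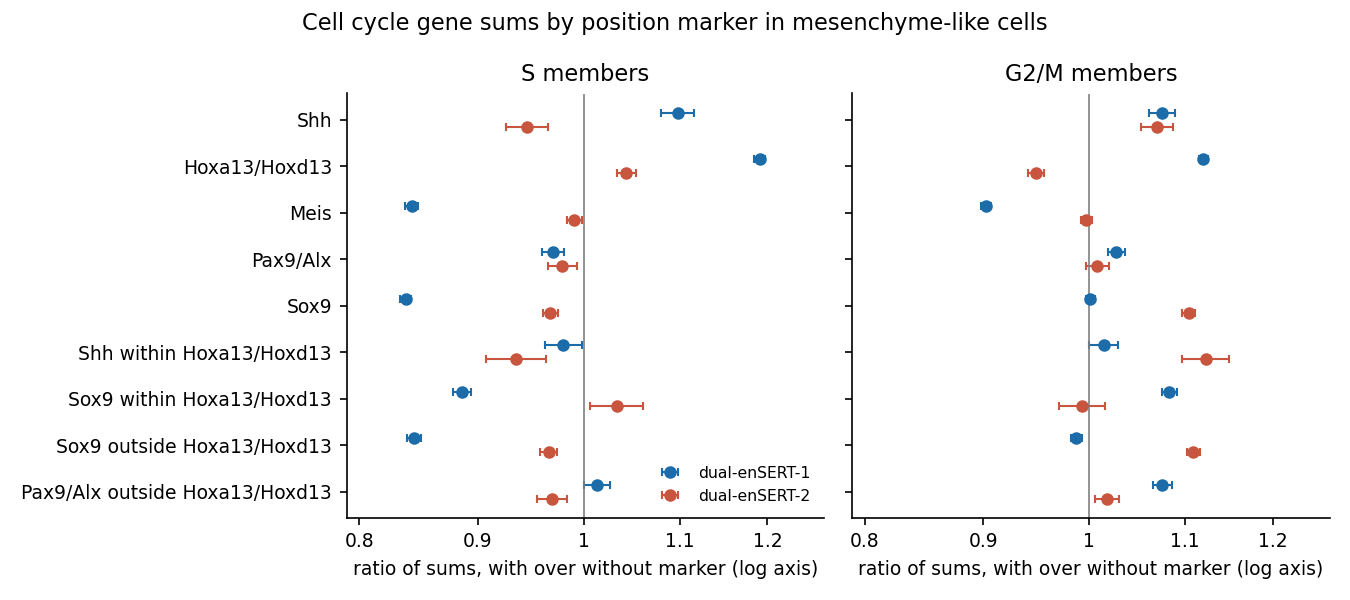
Ratio of the S (left) and G2/M (right) sums per 10000 UMIs, mesenchyme-like cells with the marker over those without it (x axis, log scale), for each position contrast (y axis) and library (colour), with 95% intervals that cover counting error only. All ratios lie between 0.838 and 1.19, and the libraries fall on opposite sides of 1 for Shh in the S panel and for Hoxa13/Hoxd13 in the G2/M panel.

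Between the libraries no test was possible, as each construct had 1 library. In mesenchyme-like cells the S sum of dual-enSERT-2 was 1.13 times that of dual-enSERT-1 (95% interval 1.13 to 1.14) and the G2/M sum 1.06 times (1.05 to 1.06). None of the 42 members passed a 1.5-fold difference, beside 2.58% of 7316 genes at 20 CPM or more past it upward and 5.65% downward. At any size 15 of 19 S and 16 of 23 G2/M members were higher in dual-enSERT-2, with median log2 ratios of 0.17 and 0.10 beside 0.0088 over all genes. The largest ratio was that of Ccne1, at 61.8 and 90.7 CPM (log2 0.55), followed by Ccnb1, at 124 and 167 CPM (0.43), and Rrm2, at 245 and 330 CPM (0.42). Pcna was at 216 and 285 CPM, Mcm5 at 127 and 153 CPM, Mki67 at 184 and 209 CPM and Top2a at 772 and 739 CPM. The lowest was Nusap1, a microtubule binder of the spindle, at 176 and 140 CPM (-0.33), and then Mcm4, at 143 and 116 CPM (-0.31).

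Of the other cycle genes Cdk6 passed 1.5-fold upward, at 92.5 and 152 CPM, and 2 inhibitors downward. Cdkn1c was at 832 CPM in dual-enSERT-1 and 386 CPM in dual-enSERT-2 (log2 -1.11), and Cdkn1b at 31.1 and 16.4 CPM (-0.88). Ccnd1, Ccnd2 and Mycn stood at 264 and 270, 454 and 394, and 34.996 and 47.7 CPM.

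The widest gap between the libraries was in the S members of erythroid-like cells. Their S sum was 2.35 times as high in dual-enSERT-2 (2.25 to 2.44) and their G2/M sum 1.30 times (1.2702 to 1.327), with a median log2 ratio over all genes of 0.47. Of the 14 S members at 20 CPM or more 13 passed 1.5-fold upward, and of 23 G2/M members 5 did, beside 37.3% of 2964 genes upward and 1.45% downward. Mcm2, Mcm6 and Pcna were at 18.8 and 62.8, 24.5 and 78.6, and 67.2 and 178 CPM. The exception among the 14 was Tyms, thymidylate synthase, at 113 and 168 CPM. Ube2c was lower in dual-enSERT-2, at 223 and 193 CPM. These ratios moved with the scale and the cells taken. Without mitochondrial and globin UMIs they were 1.80 for S and 0.995 for G2/M, with 15 of 19 S members past 1.5-fold upward and, of the G2/M members, 0 upward and 1 downward. Centred on the median gene they were 1.69 and 0.936, and with cells of at least 2000 genes 1.72 and 0.917. With doublets kept they were 1.29 and 1.05, and 5 of 16 S members passed upward and 2 downward. In the other classes S ratios ran from 1.05 to 1.28, and the G2/M sum of macrophage-like cells was lower in dual-enSERT-2, 0.867 times. Megakaryocyte markers in that class, given above, were higher in dual-enSERT-2, and their part was not tested.

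To show how the members vary from cell to cell, their UMIs were summed in each mesenchyme-like cell thinned to 5000 UMIs. The G2/M sum had a median of 13 in dual-enSERT-1, with 10% of cells at 2 or below and 10% at 46 or above, and 3.74% of cells had none. In dual-enSERT-2 the median was 19, with 8 and 38 as the same limits and 0 cells of 3741 at none, which allows a share of up to 0.0802%. The spread over cells was thus narrower at both ends in dual-enSERT-2. S sums were more alike, with medians of 12 and 15. The G2/M curve of dual-enSERT-1 was highest at its low end and had a long upper tail, while that of dual-enSERT-2 had its peak between. The higher erythroid marker level in dual-enSERT-2 mesenchyme, given above, moved with this, and its part was not tested.

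**Figure D4:**
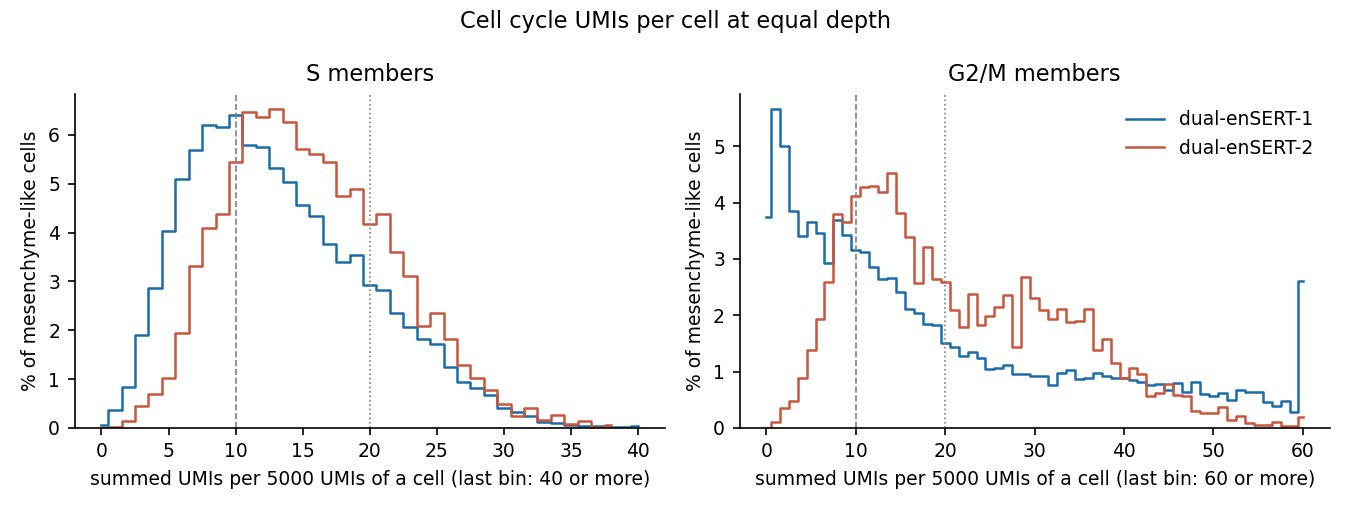
Share of mesenchyme-like cells (y axis, %) by their summed S (left) or G2/M (right) UMIs after thinning to 5000 UMIs (x axis), by library; dashed and dotted lines mark 10 and 20 UMIs. The G2/M curve of dual-enSERT-1 has its median at 13 with 3.74% of cells at 0, and that of dual-enSERT-2 its median at 19 with none at 0.

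Cells were put in ranges by these sums. The main setting was a minimum of 10 UMIs of a list, with 5 and 20 as alternatives, and values at 20 are given first. With 20 UMIs of a list as the minimum, 36.5% of the dual-enSERT-1 library and 47.8% of that of dual-enSERT-2 mesenchyme-like cells were G2/M-high, and of the rest 17.5% and 23.04% of all cells were S-high. With 10 UMIs the G2/M-high shares were 61.2% and 84.8%, so the shares follow the minimum, and 13.4% and 15.9% of cells had between 8 and 11 G2/M UMIs. At 20 UMIs the G2/M-high share was 29.2% and 36.6% in endothelial-like, 42.1% and 36.7% in macrophage-like, 32.4% and 41.2% in muscle-like and 29.5% and 34.2% in ectoderm-like cells. No class lacks these genes, so the share that free RNA gives was not measured. G2/M-high cells held more RNA before thinning, with medians of 17996 against 14817 UMIs in S-high cells of dual-enSERT-1 and 32323 against 24461.5 in dual-enSERT-2.

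Each member was then read with its own UMIs left out of the sums. This is a description, since the members make the ranges. At 20 UMIs all 23 G2/M members were higher in G2/M-high than in S-high cells of both libraries, with median log2 ratios of 2.12 and 1.497, and all 19 S members were lower, with medians of -1.17 and -0.88. With 10 UMIs as the minimum all 23 G2/M members were higher in both libraries. There 17 of the 19 S members were lower in both and 0 higher in both. By the mean over both libraries the sharpest G2/M members were Nusap1, Ube2c and Aurka, the spindle pole kinase. In dual-enSERT-2 Nusap1 was at 25.8 CPM in S-high and 216 CPM in G2/M-high cells, Ube2c at 141 and 736 CPM, and Aurka at 23.7 and 137 CPM. The flattest in that library were Ccnb2, Bub1 and Cenpa, the centromeric histone, with 114 and 120, 91.6 and 127, and 241 and 333 CPM.

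The S members also formed a range. Ccne2 and Cdc6, which loads the helicase, were the most confined to S-high cells, at 87.0 against 9.63 CPM and 107 against 26.0 CPM in dual-enSERT-2, with log2 ratios of -3.05 and -2.002. The Mcm genes, Pcna and Ccne1 lay between. Rrm1 and Tyms, which make DNA precursors, were nearly level, at 225 against 198 CPM and 226 against 200 CPM.

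With 10 UMIs as the minimum dual-enSERT-1 also gave 1433 cells low in both sums, with which the other ranges were compared. Top2a was at 72.1 CPM in low, 319 CPM in S-high and 995 CPM in G2/M-high cells. Cdk1 was at 21.1, 73.8 and 253 CPM and Ect2 at 7.66, 32.3 and 110 CPM, so these mitotic genes were already above low cells in S-high cells. Ube2c, at 67.3, 63.6 and 621 CPM, Ccnb2, at 67.2, 73.8 and 146 CPM, and Cenpa, at 134, 144 and 323 CPM, differed by under 15 CPM between low and S-high cells. Cdc6 rose and fell again, at 8.65, 81.5 and 29.8 CPM, and Rrm2 stayed up, at 66.2, 260 and 256 CPM. In dual-enSERT-2 only 17 cells were low in both sums, and their single genes are not given.

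Of the other lists all 37 other mitosis genes were higher in G2/M-high than in S-high cells of both libraries at 20 UMIs, with median log2 ratios of 1.52 and 1.13, led by Prc1, a crosslinker of the central spindle. Of 24 other replication genes 23 were lower in both, with medians of -0.80 and -0.57. The exception at 20 UMIs was Dbf4, the activator of the origin kinase Cdc7, at 0.99 and 0.73. With 10 UMIs as the minimum 18 of the 24 were lower in both libraries and 2 higher in both. Cdkn1c was highest in cells low in both sums, at 1603 CPM, with 983 CPM in S-high and 774 CPM in G2/M-high cells of dual-enSERT-1 at 10 UMIs. Ccnd2 fell along the same order, at 649, 593 and 390 CPM, and E2f1 had its highest level in S-high cells, at 15.8, 62.7 and 33.2 CPM. Mycn was at 10.5, 28.2 and 36.0 CPM.

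**Figure D5:**
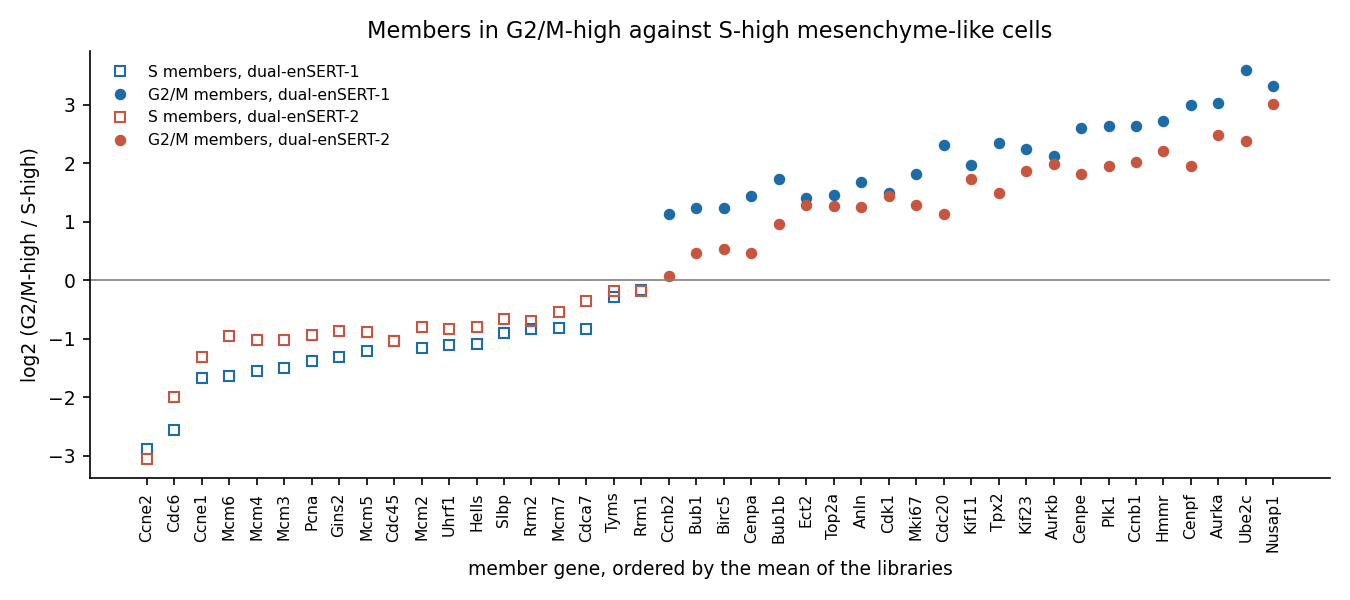
The log2 ratio of G2/M-high over S-high mesenchyme-like cells (y axis, 20 UMIs of 5000 as the minimum, own gene left out) for the 42 members (x axis), by library (colour); squares are S and circles G2/M members. All 23 circles are above 0 and all 19 squares below it, with Rrm1 and Tyms nearest to 0 among the S members and Ccnb2 among the G2/M members. At the main minimum of 10 UMIs, which is not drawn, 17 of the 19 S members were lower in both libraries.

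Because the members of each list moved together over cells, their promoters were read for the elements known for the S and G2/M waves. Promoters from 250 bases before to 50 bases after the start, from RefSeq on GRCm38.p6, were found for 16 S and 21 G2/M members. Searched on both strands were CCAAT, bound by NFY, the cell cycle genes homology region TTTGAA (CHR), bound by DREAM and MYBL2 complexes, and the E2F words TTTCCCGC, TTTCGCGC, TTTGCCGC and TTTGGCGC. The CHR was in the window of 16 of 21 G2/M members (76.2%) and 2 of 16 S members (12.5%), beside 20.2% of all 27025 genes. An E2F word was in 8 of 16 S members (50%) and 1 of 21 G2/M members (4.76%), beside 2.60% of all genes. CCAAT was in 18 G2/M (85.7%) and 11 S members (68.8%), beside 41.1% of all genes. The single G2/M member with an E2F word was Cdk1, and the S members with a CHR were Cdc45 and Mcm2. A match is a description and not a shown site, and words other than these were not searched.

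The promoters of 4 members are printed because their genes had the largest rise over cells low in both sums within each list, ranked by the smaller fold of the 2 libraries. In dual-enSERT-2 that fold rests on 18 to 21 low cells per printed gene, so the ranking is imprecise. Sequences run 5' to 3' on the strand of the gene, and capitals mark CCAAT, CHR and E2F matches that read on either strand.
Cdc6, chr11:98907901-98908200 (+): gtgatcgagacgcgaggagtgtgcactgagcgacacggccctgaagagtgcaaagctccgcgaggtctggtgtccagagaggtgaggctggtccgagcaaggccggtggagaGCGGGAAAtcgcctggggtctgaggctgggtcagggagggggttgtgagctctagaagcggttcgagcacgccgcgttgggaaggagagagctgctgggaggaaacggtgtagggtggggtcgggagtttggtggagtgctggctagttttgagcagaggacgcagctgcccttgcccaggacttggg
Mcm5, chr8:75109259-75109558 (+): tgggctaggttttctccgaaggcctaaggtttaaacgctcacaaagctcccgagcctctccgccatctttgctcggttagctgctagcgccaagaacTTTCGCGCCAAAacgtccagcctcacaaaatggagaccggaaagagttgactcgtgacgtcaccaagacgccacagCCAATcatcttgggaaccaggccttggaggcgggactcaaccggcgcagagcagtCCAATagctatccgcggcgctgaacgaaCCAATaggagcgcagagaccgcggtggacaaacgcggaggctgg
Plk1, chr7:122159185-122159484 (+): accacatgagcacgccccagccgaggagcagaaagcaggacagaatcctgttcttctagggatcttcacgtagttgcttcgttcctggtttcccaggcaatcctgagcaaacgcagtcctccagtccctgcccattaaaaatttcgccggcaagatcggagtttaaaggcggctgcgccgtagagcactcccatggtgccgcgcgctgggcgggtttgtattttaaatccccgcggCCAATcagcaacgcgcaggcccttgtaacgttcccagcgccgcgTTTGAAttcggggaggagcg
Aurka, chr2:172370521-172370820 (-): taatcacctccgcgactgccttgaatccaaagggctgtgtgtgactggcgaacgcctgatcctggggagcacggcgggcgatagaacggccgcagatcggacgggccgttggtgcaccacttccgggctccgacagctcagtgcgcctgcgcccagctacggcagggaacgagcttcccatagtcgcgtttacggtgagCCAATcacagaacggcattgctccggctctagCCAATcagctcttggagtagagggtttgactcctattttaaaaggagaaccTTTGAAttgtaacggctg
Both S promoters hold E2F words, at base -138 from the start in Cdc6 and, as an overlapping pair on opposite strands, from -153 and -149 in Mcm5, which also has CCAAT at -77, -22 and 7. Both promoters of the mitotic kinases Plk1 and Aurka hold CCAAT upstream, at -14 in Plk1 and at -51 and -19 in Aurka, and a CHR downstream of the start, at 31 and 33. No CHR was found in the Cdc6 and Mcm5 windows and no E2F word in those of Plk1 and Aurka. In the mesenchyme-like cells of dual-enSERT-1 Plk1 was at 6.55 CPM in cells low in both sums, 13.4 CPM in S-high and 110 CPM in G2/M-high cells, and Aurka at 4.18, 10.7 and 99.8 CPM. Mcm5 was at 90.3, 182 and 112 CPM.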

How the data were processed

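Transcripts were counted in 2 droplet libraries, 1 per construct. The deposited matrices hold raw UMI counts per gene and cell; per the file headers they came from Cell Ranger 7.0.1, while Cell Ranger 3.1.0, Seurat 4 and mm39 stand in the submitters' processing notes, and which applies is not given in the sources used here. Barcodes needed 1000 or more genes and no more than 10% mitochondrial UMIs, and Scrublet (expected rate 8%) marked 10.1% and 3.46% of them as doublets, which were removed. Cells were clustered per library (Scanpy 1.11.5; 2000 variable genes, 30 components, 15 neighbours, Leiden resolution 1). A class needed 3 markers at least 2-fold higher and seen in 10% of the cluster. Sums pool all UMIs, with exact 95% intervals that cover counting error only.

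UMIs summed per library and group were tested with edgeR 4.0.16 (TMM, quasi-likelihood, library as a block; Benjamini-Hochberg adjusted p under 0.05 over all genes tested), checked on simulated data, with DESeq2 1.42.0 as an alternative. Between libraries, CPM values were compared with a pseudocount of 1 and a 1.5-fold difference. With 1 library per construct a library cannot be left out of the tests.

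The members, lists and rules were chosen with earlier results of these data known. In each contrast up to 4 members per direction that passed, by the smaller fold of the libraries, and Mki67, Top2a, Ccnb1, Mcm5, Pcna and Rrm2 are named, with Ccnd1, Ccnd2, Cdkn1c and Mycn beside other list genes; other genes, among them those named over phase ranges, were chosen after their values were seen. UMIs from the 3' end do not compare levels between genes. Promoter sequences are those of RefSeq on GRCm38.p6, and no coordinates of the files' build were used.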

Additional observations from a re-analysis of the deposited data

Results flagged for a closer look

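In 5 position contrasts the ratios of the libraries lay on opposite sides of 1, each with a counting interval clear of 1, and the difference between the libraries was not tested. The intervals cover counting error of pooled UMIs only and not the spread over cells, so they do not show that the libraries differ. The S sum of Shh cells over other mesenchyme was 1.098 in the dual-enSERT-1 library and 0.945 in that of dual-enSERT-2. The G2/M sum of Hoxa13/Hoxd13 cells was 1.12 and 0.948 times that of other mesenchyme. Among Hoxa13/Hoxd13 cells, those with Sox9 had an S ratio of 0.886 in the dual-enSERT-1 library and 1.03 in that of dual-enSERT-2. Outside them Sox9 cells had a G2/M ratio of 0.987 and 1.11, and Pax9/Alx cells an S ratio of 1.01 and 0.969. Construct, embryo and preparation cannot be told apart here.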

How the results depend on the processing

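Of 301 values recomputed under alternatives, 211 were kept, 88 moved and 2 reversed, and the causes were not tested. A sum was kept if it moved by no more than the spread between the libraries, and a count if it changed by no more than 1.5 times. Ratios between libraries and phase shares were kept if they stayed within the interval of their main value. Among the 211 the Shh S sum, for which the libraries lie on opposite sides of 0, went from 0.027 to -0.067 with detection at 2 UMIs and to -0.013 without the 3 largest members. Sums below are mean log2 ratios and counts are members called. Without globin UMIs in the total, chosen after seeing the data, the erythroid G2/M sum turned from -1.11 to 0.34 and the S sum moved from -1.85 to -0.41. With detection of Meis without thinning its G2/M sum turned from -0.076 to 0.024.

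With cells of at least 2000 genes the erythroid G2/M sum was -0.84 and Meis had 0 calls in place of 1. With doublets kept the sums were -0.40 (ectoderm G2/M), -0.58 (endothelial S), -0.094 (macrophage S) and 0.093 (Shh G2/M), the ratios between libraries 1.11 (S) and 1.03 (G2/M), and the counts 2 for Meis, 0 for Pax9/Alx, 0 in place of 2 for Shh within distal cells, 3 for Sox9, 15 in place of 25 for endothelial and 1 in place of 31 for erythroid. Over all genes the erythroid calls dropped as well, to 2.29% of 21160 genes higher and 0 lower. With cells thinned to 5000 UMIs the ratios between libraries were 1.17 (S) and 1.13 (G2/M), with 1 member past the fold, the sums 0.12 (Shh G2/M), -0.022 (Pax9/Alx S) and -0.72 (endothelial S), and the counts 1 for Hoxa13/Hoxd13, 5 for Meis, 0 for Shh within distal cells, 3 for Sox9 outside them, 4 for Sox9, 15 for ectoderm, 7 for macrophage and 1 for muscle.

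Without the 3 largest members of each list the sums were 0.11 (Shh G2/M), -0.23 (endothelial G2/M), -0.55 (endothelial S), -0.023 (Pax9/Alx S) and -0.070 (macrophage S). Detection without thinning gave 0.073 (Shh), 0.17 (Pax9/Alx), 0.23 (Pax9/Alx outside distal cells), 0.19 (Sox9), 0.20 (Sox9 within distal cells) and 0.19 (Sox9 outside them) for G2/M and -0.078 for the Pax9/Alx S sum, with counts of 18 for Pax9/Alx, 4 for it outside distal cells, 0 for Shh within them and 3 each for Sox9, Sox9 within and Sox9 outside them. Detection at 2 UMIs gave G2/M sums of 0.14 (Shh), 0.22 (Shh within distal cells), 0.10 (Pax9/Alx), 0.14 (Pax9/Alx outside) and 0.16 (Sox9 within) and S sums of -0.13 (Pax9/Alx), -0.11 (Pax9/Alx outside) and -0.20 (Shh within), with counts of 2 for Meis, 0 for Pax9/Alx outside, 0 for Shh within, 6 for Sox9 outside and 9 for Sox9.

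DESeq2 called 4 members for Hoxa13/Hoxd13, 7 for Meis, 0 for Pax9/Alx, 0 for it outside distal cells, 3 for Shh, 1 for Shh within distal cells, 4 for Sox9, 2 for Sox9 outside and 13 for macrophage, and DESeq2 size factors in edgeR gave 2 for Meis. Without the filter on low counts 3 were called for Hoxa13/Hoxd13, 14 for Meis, 0 for Shh within distal cells, 7 for Sox9, 8 for Sox9 outside and 7 for macrophage. Between libraries the S and G2/M ratios were 1.14 and 1.06 without mitochondrial and globin UMIs and 1.13 and 1.05 centred on the median gene. With a minimum of 20 UMIs G2/M-high shares were 36.5% and 47.8% and S-high shares 17.5% and 23.04%, and with 5 UMIs they were 78.3% and 98.2%, and 19.6% and 1.79%. The 5 class contrasts and their sums kept their values when cells were clustered with cell cycle genes.

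No paired analysis was possible because each construct has 1 library. Classes and positions were compared with the library as the block, and leaving out a library there would leave no residual degrees of freedom. Small groups limit depth: 62 and 55 macrophage-like cells, 68 muscle-like cells in dual-enSERT-2, and 50 Shh cells within the distal cells of that library.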

Other observations

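The cells left out of the classes carried cell cycle transcripts too. The unnamed shallow clusters, with a median of 2972 UMIs in the dual-enSERT-1 library and 5209 in that of dual-enSERT-2, had S sums of 27.8 and 29.1 and G2/M sums of 49.0 and 43.4 per 10000 UMIs. The doublets had S sums of 25.6 and 23.5 and G2/M sums of 43.4 and 36.4, with globin at 1.43% and 22.1% of their UMIs. At a minimum of 20 of 5000 UMIs, G2/M-high cells made up 42.6% of Shh cells and 36.4% of other mesenchyme in the first library (dual-enSERT-1). The second library had 53.8% and 47.6%.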
